A study of Mus musculus with 10 samples.

Results

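Fluticasone furoate (FF), a synthetic glucocorticoid used as an inhaled and nasal drug, was compared with EtoH in the mouse line RAW264.7, transformed cells with macrophage features. The comparison uses 4 of the series' 10 arrays, the 2 labelled FF and the 2 labelled EtoH, and every probe on them that is not a control. The other 6 arrays, 2 each of dexamethasone (Dex), VSG22 and VSGC12, served to estimate the spread and to ask where FF differed from the other glucocorticoids. The FF cells received 100 nM of the drug 1 hour before lipopolysaccharide (LPS), the outer-membrane glycolipid of Gram-negative bacteria to which macrophages respond, at 1 µg/ml, and LPS was present for 16 hours. EtoH is read here as the ethanol solvent with no glucocorticoid. The labels do not state whether the EtoH cells were given LPS, and no group is labelled as unstimulated, so every value below carries that limit. All groups are of the same transformed line, grown in serum, with no further genetic change named. The source labels write the line as R264.7, which is read here as RAW264.7. Whether the 2 arrays of a group came from separate cultures is not stated either, so the p-values measure the spread between these arrays, which may be technical.

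The glucocorticoid receptor is held in the cytoplasm by heat-shock chaperones and moves to the nucleus once it binds a glucocorticoid. There it acts on genes directly at glucocorticoid response elements, or by meeting factors such as NF-kB, AP-1 and the interferon regulatory factors at their own sites. In macrophages it is known for lowering inflammatory cytokine, chemokine and interferon genes, and for raising genes such as Fkbp5, Tsc22d3 and Dusp1.

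Levels are given as log2 processed signal relative to the array's own 75th percentile, and changes as FF minus EtoH on that log2 scale, ± SE, with 2 arrays in each group. A gene was called at an adjusted p of at most 0.05 in limma's test with Benjamini-Hochberg adjustment over all genes. Of 18034 genes tested, 6642 were called (36.8%), of which 3032 were higher in FF (16.8% of all genes) and 3610 lower (20%). At least 2-fold changes were called upward for 896 genes (4.97%) and downward for 730 (4.05%), and the median change over all genes was -0.03. The gene lists below were chosen with earlier results of these data known, so their counts describe the members and do not test the lists. They are to be read beside these shares of all genes, and the share of members called beside 36.8%. Both FF arrays lay on one side of both EtoH arrays for 73.4% of genes. The replicate number marks the slide, each slide held all 5 groups, and FF minus EtoH had the same sign on both slides for 83.6% of all genes tested. With the replicate as a block 7207 genes were called. The FF arrays correlated with r = 0.994 and the EtoH arrays with r = 0.995, both across genes, which do not count as replicates.

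The number of calls rests on each of the 4 arrays and on the scale. It was 4312 without FF replicate 1, 4352 without FF replicate 2, 4048 without EtoH replicate 1 and 3827 without EtoH replicate 2, where the lone array is assumed to vary like the other groups. With each array's median subtracted in place of its 75th percentile, 2540 genes were called, 68.8% of them higher in FF, against 45.6% at the main scale, and the median over all genes moved to 0.10. With no filter on dim probes 3182 genes were called. On the 10 arrays, between 40.1% and 44.4% of spots were well above background and 0 were saturated. On the FF arrays, 683 genes (3.79%) were read by a spot in a patch of local signal, where 3 or more of the 24 nearest spots exceeded background in that group alone. Named genes in such a patch are marked, though the spot that reads them may be sound.

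The cells carried the markers of their label. A gene counts as measured if a probe of it passed the scanner's background test on both arrays of some group. A gene not measured had no probe, or none that passed. All 10 macrophage markers examined were well above background on all 4 arrays. The log2 of their summed signal, called the summed level below, was 9.31 and 9.37 in FF and 9.12 and 9.10 in EtoH. Of 12 markers of T and NK cells, 4 were measured, and their summed level was 6.28 and 6.35 in FF against 5.21 and 5.24 in EtoH, with Cd3d, Cd8a, Trac and Ncr1 not measured. Of 14 neutrophil and mast cell markers, 4 were measured, at 6.88 and 6.98 in FF and 5.56 and 5.88 in EtoH, with Mpo, Ly6g and Kit not measured. B-cell markers were represented by Blnk alone, at 5.96 and 6.08 in FF and 6.58 and 6.54 in EtoH, while Ms4a1 and Cd79a were not measured. The summed level of the 2 measured fibroblast markers was -1.23 and -1.52 in FF and -1.92 and -1.70 in EtoH. The 1 measured epithelial marker gave -3.84 and -4.13 in FF and -3.54 and -2.26 in EtoH. Among these, Cd4 (1.63), the neutrophil elastase gene Elane (1.75) and the mast cell tryptase gene Tpsb2 (0.99, detected on 1 of the 2 EtoH arrays) were called higher in FF, and Il7r (-1.76) and Blnk (-0.54) lower. The calls of Cd4 and Elane were lost without any 1 of the 4 arrays (1.59 to 1.67 for Cd4 and 1.58 to 1.92 for Elane). The part of these markers in the results was not tested. In bulk samples such as these, fewer cells of a kind and less RNA per cell cannot be told apart.

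**Figure D1:**
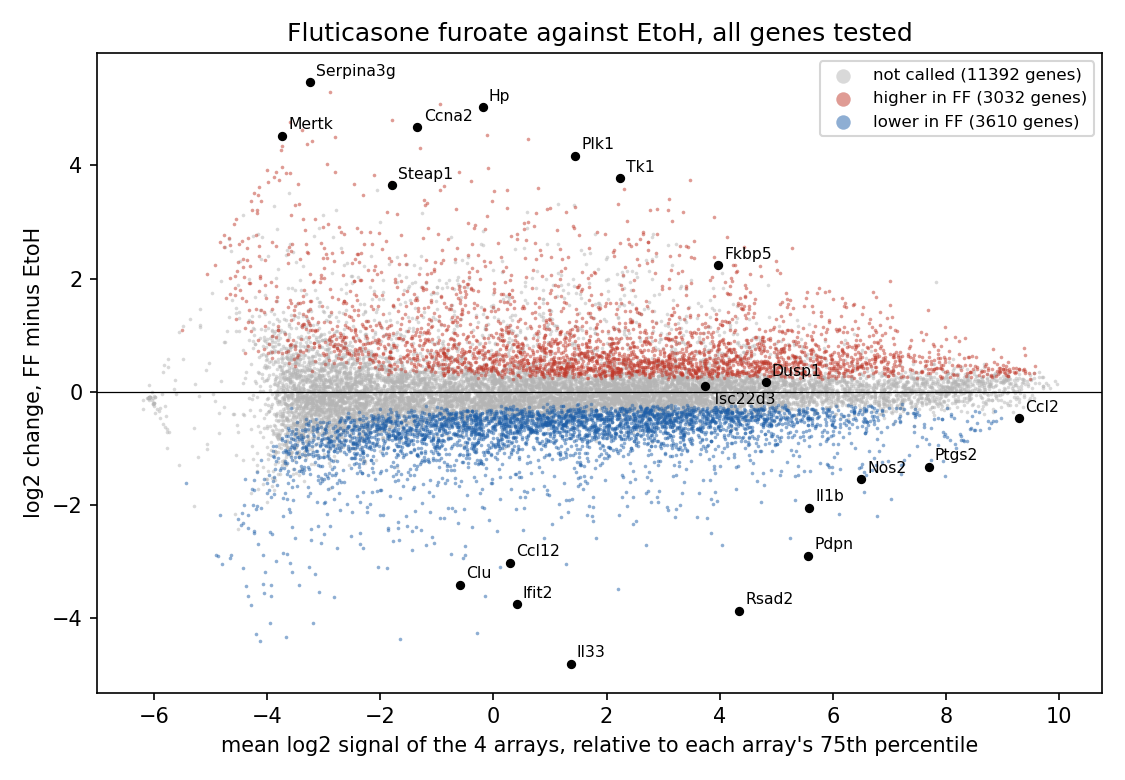
Each point is 1 of the 18034 genes tested, with the mean log2 signal of the 4 arrays on the x axis and the log2 change of FF minus EtoH on the y axis. Red points were called higher in FF (3032 genes), blue points lower (3610) and grey points neither. Hp lies near 5 at the top and Il33 near -5 at the bottom, while Tsc22d3 and Dusp1 lie near the zero line.

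The 2 genes with the largest changes among those detected on all 4 arrays were Hp and Il33. Hp, which encodes the haemoglobin-binding acute phase protein haptoglobin (probe at mm9 chr8:112099045-112099104), gave 2.33 and 2.31 on the FF arrays and -2.73 and -2.68 on the EtoH arrays. The FF arrays were high and the EtoH arrays low, with no overlap and almost no spread within a group. The change was 5.02 ± 0.10, or 32.5-fold (adjusted p = 5.4e-06). Il33, a cytokine of the interleukin 1 family (mm9 chr19:30035101-30035160), gave -0.98 and -1.08 on the FF arrays and 3.73 and 3.80 on the EtoH arrays. Here the order was opposite, with both FF arrays far below both EtoH arrays, and the gene was 27.8-fold lower in FF (log2 -4.80 ± 0.27, adjusted p = 7.6e-05).

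Next among the highest were genes of the dividing cell. Ccna2, cyclin A2, which drives DNA replication and entry into mitosis (mm9 chr3:36463978-36464037), gave 1.17 and 0.81 on the FF arrays and -3.86 and -3.51 on the EtoH arrays, a change of 4.68 ± 0.19 (adjusted p = 2.3e-05; 3.07 with normexp, another background correction). Plk1, a kinase of the mitotic spindle and centrosomes (mm9 chr7:129313220-129313279), gave 3.47 and 3.58 in FF and -0.38 and -0.90 in EtoH, a change of 4.17 ± 0.18. In both genes the 2 FF arrays were high and the 2 EtoH arrays low. Tk1, the thymidine kinase that recycles a DNA building block, gave 4.16 and 4.07 in FF and 0.42 and 0.28 in EtoH, a change of 3.77 ± 0.09 (adjusted p = 1.0e-05). The nuclease gene Exo1 changed by 3.88 ± 0.12, the recombination genes Rad54l and Rad51ap1 by 3.64 ± 0.22 and 3.56 ± 0.17, the mitosis-associated gene Sapcd2 by 3.72 ± 0.24, and the metalloreductase-family gene Steap1 by 3.65 ± 0.12 (2.26 with normexp). E2f7, a repressor of the E2F family, was read by a probe not above background on the EtoH arrays, where another of its probes was, and by that probe it was at least 7.8-fold higher (log2 1.41 with the mean of its probes). The 2 other genes among the highest 12 were less certain. Npb, which encodes a neuropeptide, gave 3.65 and 4.54 in FF and 0.58 and 0.47 in EtoH, and its call was lost without any 1 of these arrays (3.12 to 4.02; 2.01 with the mean of its probes). The vomeronasal receptor pseudogene Vmn2r-ps38 gave 1.11 and 2.63 in FF and -1.86 and -2.30 in EtoH, with an adjusted p of 0.046 that was lost without any 1 array of FF, EtoH, VSG22 or VSGC12 (3.18 to 4.71).

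Antiviral genes held 5 of the 12 lowest places. Rsad2, which encodes the antiviral enzyme viperin (mm9 chr12:27127859-27127918), gave 2.42 and 2.43 on the FF arrays and 6.26 and 6.30 on the EtoH arrays, and was 14.5-fold lower in FF (log2 -3.86 ± 0.10, adjusted p = 1.0e-05). Both FF arrays sat at nearly the same low level. Its chromosomal neighbour Cmpk2, a mitochondrial nucleotide kinase induced by interferon, fell by 3.47 ± 0.14, and Ifit2, whose product blocks translation of viral RNA, by 3.75 ± 0.12, with a probe in a patch on an FF array. Ifit3 fell by 3.04 ± 0.18 and its near copy Ifit3b by 3.09 ± 0.16, and their probes may not tell the pair apart. Outside the antiviral genes, Tent5c, a poly(A) polymerase, fell by 3.60 ± 0.16, Clu, the extracellular chaperone clusterin, by 3.40 ± 0.14, Plpp3, a lipid phosphatase, by 3.11 ± 0.19 (-1.88 with normexp), and Pakap by 2.93 ± 0.24. The monocyte attractant Ccl12 gave -1.18 and -1.25 in FF and 1.77 and 1.83 in EtoH, a fall by 3.01 ± 0.19. Pdpn, the cell-surface mucin podoplanin, gave 4.27 and 3.96 in FF and 7.08 and 6.93 in EtoH, a fall by 2.89 ± 0.16, so that it stayed among the brighter genes in FF.

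**Figure D2:**
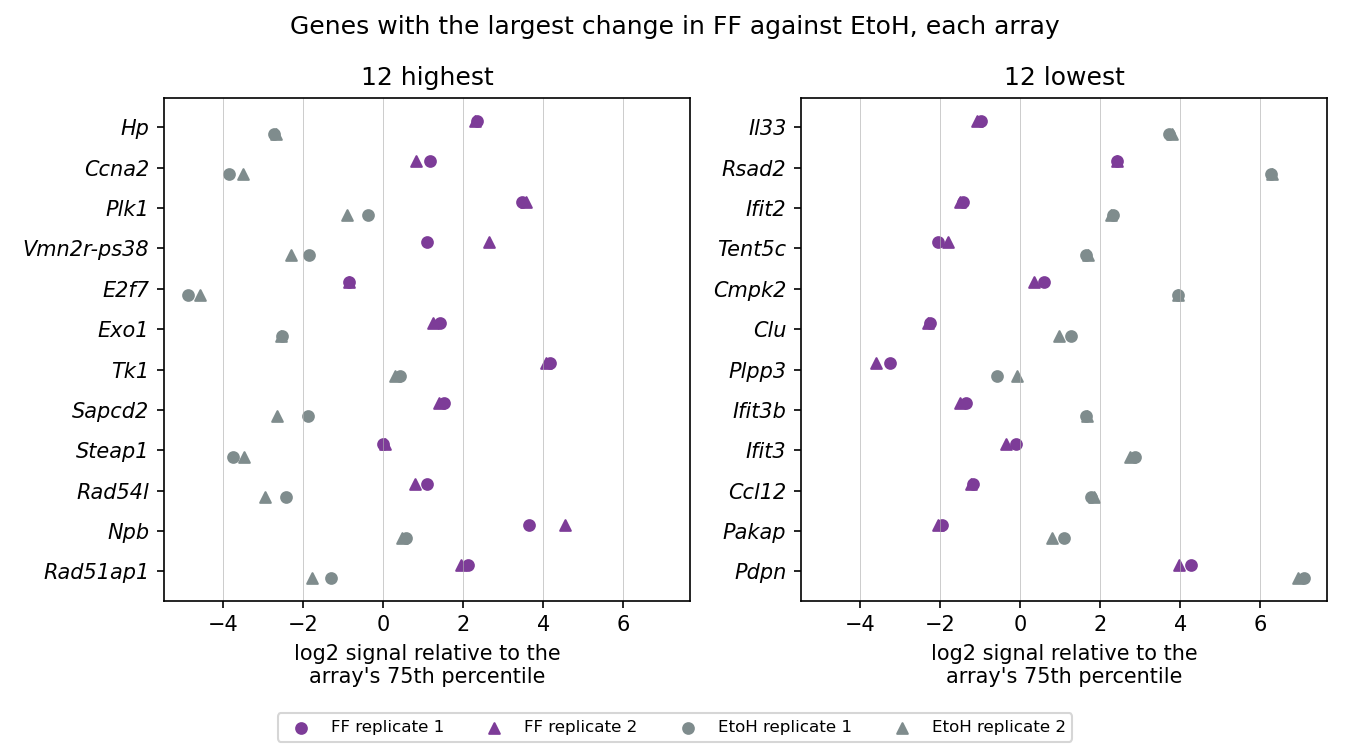
Log2 signal relative to the array's 75th percentile (x axis) on each of the 4 arrays for the 12 genes highest and the 12 genes lowest in FF, FF in purple above EtoH in grey, circles for replicate 1 and triangles for replicate 2. The genes were chosen among those whose 2 FF points lie on one side of the 2 EtoH points, so every row shows it. The widest gap between replicates is that of Vmn2r-ps38 in FF.

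Some genes crossed the detection limit, and their folds are lower bounds. They are taken against the dimmest signal that passed the scanner's background test on each array of the other group, or against the gene's own reading where that was higher. On both FF arrays but neither EtoH array, 143 genes were detected and called higher, and 112 were detected on both EtoH arrays but neither FF array and called lower. The highest bounds in FF were those of Gm12387 (at least 11.9-fold higher), the protease inhibitor gene Serpina3g (at least 9.83-fold), the mitotic gene Depdc1b (at least 9.04-fold) and Gm9430 (at least 8.69-fold). Serpina3g gave -0.57 and -0.47 in FF and -6.21 and -5.77 in EtoH, and its family holds near-identical copies that probes may not separate. Mertk, the receptor by which macrophages take up dying cells, gave -1.73 and -1.24 in FF and -6.13 and -5.88 in EtoH. It was at least 5.05-fold higher in FF. Its adjusted p of 2.6e-05 in limma rests on EtoH readings that did not pass the background test. In the other direction Osbp2, an oxysterol-binding protein gene, was at least 8.06-fold lower in FF, Dusp13 at least 7.3-fold, the GTPase gene Rhov at least 5.51-fold, and Btg4 at least 4.77-fold (patch on an FF array). The call of Btg4 was lost without EtoH replicate 1 (log2 -2.26). With normexp, dim genes changed less, by log2 1.50 for Mertk, 2.26 for Serpina3g and -1.61 for Osbp2, all still called. The bounds given further on for Kif11, Serpina3f and Thbs1 exceed 2-fold, but normexp gave log2 0.87, 0.92 and -0.47, less than 2-fold. Every bound in the text therefore holds for the main background setting only.

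Genes known as direct targets of the glucocorticoid receptor did not move as a group. Of 24 measured, 6 were higher in FF and 4 lower (3 and 2 with each array's median subtracted), and their median change was 0.09, beside -0.03 over all genes, so the share called was close to that of all genes. Fkbp5, a co-chaperone that tunes the receptor's own activity (mm9 chr17:28536060-28536119), gave 5.21 and 4.99 on the FF arrays and 2.92 and 2.80 on the EtoH arrays. It was high on both FF arrays and low on both EtoH arrays, 4.71-fold higher (log2 2.23 ± 0.13, adjusted p = 8.3e-05). Angptl4, an inhibitor of lipoprotein lipase, rose by 1.15 (probe in a patch on an FF array), and the iron-carrier gene Lcn2 by 0.75. The metallothionein gene Mt1 rose by 0.61, a call lost without FF replicate 1 (0.51) or EtoH replicate 2 (0.55), and the kinase gene Sgk1 by 0.40, a call lost without any 1 of the 4 arrays (0.30 to 0.49). Lower in FF were Rgs2, a brake on G protein signalling, which gave 2.71 and 2.49 in FF and 5.21 and 4.98 in EtoH (a fall by 2.49 ± 0.13), Ddit4, an inhibitor of mTOR signalling (by 1.40 ± 0.09), and the transcription factor gene Klf2 (by 0.85 ± 0.16; -0.46 and not called with normexp).

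Several textbook targets were not called. Tsc22d3, whose product GILZ restrains inflammatory signalling, gave 3.86 and 3.74 in FF and 3.70 and 3.69 in EtoH, a difference of 0.11 ± 0.09 (95% interval -0.10 to 0.32, adjusted p = 0.37). For Dusp1, a MAP kinase phosphatase, the arrays gave 5.15 and 4.66 in FF and 4.66 and 4.79 in EtoH (difference 0.18 ± 0.16, 95% interval -0.21 to 0.56, adjusted p = 0.43). The groups were close to each other in both genes, though the intervals leave room for moderate changes in Dusp1. Zfp36, which encodes the mRNA-decay factor tristetraprolin, gave 3.80 and 3.39 in FF and 3.17 and 3.26 in EtoH (95% interval of the difference -0.32 to 1.08), and the clock gene Per1 3.32 and 3.08 in FF and 3.46 and 3.52 in EtoH (95% interval -0.64 to 0.06).

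Of the receptor itself and its chaperones and cofactors, 22 genes were measured, 4 higher and 4 lower (4 and 1 with each array's median subtracted), with a median of 0.10, and the share called, 36.4%, was that of all genes. The receptor gene Nr3c1 gave 2.82 and 2.94 in FF and 3.14 and 3.12 in EtoH, a difference of -0.25 ± 0.09 (adjusted p = 0.075), and was called lower when its probes were averaged (-0.51) or with a percentile over detected probes (-0.31). Besides Fkbp5, the co-chaperone gene Fkbp4 rose by 1.12 (patch on an FF array) and the Mediator subunit gene Med14 by 0.85. The inducible chaperone gene Hsp90aa1 fell by 1.29 and the coactivator gene Ncoa1 by 0.89, a call lost when its probes were averaged (-0.33). The acetyltransferase gene Ep300 fell by 0.61, lost without any 1 of the 4 arrays (-0.66 to -0.55).

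Promoter sequence was read in the window from 250 bases before to 50 bases after each gene's start, as RefSeq gives it for GRCm38.p6, on both strands. The glucocorticoid response element, AGAACA and TGTTC with a gap of 3 bases, was found at Sgk1 among the target genes that rose, from position -189 relative to the start. A looser form without the first A, in which the 2 bases next to the outer G and C are free and which every match of the stricter one also holds, was found at Sgk1 and, from position -94, at Mt1. Both matches are shown whole, in capitals, because they are the only ones in the 9 windows of these genes.
Sgk1 (chromosome 10): AGAACAGAATGTTC
Mt1 (chromosome 8): GGACATGATGTTC
Windows as short as these leave out most known response elements, which lie farther away, so a window with no match says nothing of the receptor there. Among 12513 windows of all genes tested, which cover 9901 genes, 1 held the stricter form (0.00799%) and 36 the looser form (0.288%).

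Genes of cell division moved one way. Of 44 measured genes of the mitotic spindle and cytokinesis, 43 were higher in FF and 0 lower, with a median of 1.80, against 16.8% higher among all genes tested. The list was chosen with earlier results of these data known, so this count is a description. With each array's median subtracted, 40 of them were still called higher, and 41 or 42 without any 1 of the 4 arrays. The kinase gene Pbk had the highest change, 5.08 ± 0.32, detected on 1 of the 2 EtoH arrays, followed by Plk1 above. Kif2c, a microtubule-depolymerising motor, was at least 4.2-fold higher, and Kif11, the motor that pushes spindle poles apart, at least 2.62-fold. Birc5, which encodes survivin of the chromosomal passenger complex, gave 4.87 and 4.75 in FF and 1.60 and 1.23 in EtoH, a change of 3.40 ± 0.14, and the complex's kinase gene Aurkb changed by 2.36 ± 0.15. The FF arrays lay well above the EtoH arrays for both members of that complex. The 1 gene not called was Tpx2 (0.22), although the average over its probes was called higher (1.39). The proliferation antigen gene Mki67 gave 2.57 and 2.68 in FF and 1.03 and 1.27 in EtoH, a change of 1.47 ± 0.10 (adjusted p = 1.6e-04).

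The cell-cycle engine moved with the spindle genes. Of 31 cyclins, cyclin-dependent kinases and cell-cycle factors, 21 were higher in FF and 1 lower (71.0% called), with a median of 0.85. The B-type cyclin gene Ccnb1 rose by 2.13 ± 0.14 and its kinase partner Cdk1 by 2.64 ± 0.14 (patch on an FF array). Cdc25c, the phosphatase that activates Cdk1, was at least 4.6-fold higher (patch on an FF array). The transcription factors of the late cell cycle, Foxm1 and Mybl2, rose by 1.46 ± 0.13 and 2.76 ± 0.15. E2f8, a repressor of the same branch as E2f7, rose by 2.89 ± 0.14, whereas the activator E2f1 stood at 0.33 ± 0.11 (adjusted p = 0.056) and was called with the replicate as a block and without either Dex array. Rb1, the retinoblastoma gene that restrains E2F factors, fell by 0.60 ± 0.10.

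DNA replication genes showed the same direction. Of 36 measured, 30 were higher in FF and 1 lower (86.1% called), with a median of 1.29. Mcm6, a subunit of the replicative helicase (mm9 chr1:130228178-130228237), gave 5.59 and 5.83 in FF and 3.16 and 3.16 in EtoH, a change of 2.55 ± 0.11, and its partner Mcm5 changed by 1.88 ± 0.11. The replication initiation factor Mcm10 rose by 3.17 ± 0.13, the DNA polymerase epsilon gene Pole by 2.75 ± 0.11, the polymerase alpha gene Pola1 by 1.37 ± 0.10 and the topoisomerase gene Top2a by 2.12 ± 0.11. Cdc6, which loads the helicase, rose by 3.13 ± 0.18 and was detected on 1 of the 2 EtoH arrays. The exception was Cdt1, its partner in helicase loading, which gave 5.72 and 5.78 in FF and 6.43 and 6.51 in EtoH, a fall by 0.72 ± 0.11. It was the reverse of the list, with both FF arrays below both EtoH arrays. Cdt1 stood at -0.59 and was not called with each array's median subtracted.

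Supply and repair of DNA followed. Of 22 nucleotide synthesis genes, 18 were higher and 1 lower (86.4% called), with a median of 0.95. After Tk1, the ribonucleotide reductase subunit gene Rrm2 rose by 3.31 ± 0.16 and the dUTPase gene Dut by 2.40 ± 0.14. The gene called lower was Samhd1, which degrades deoxynucleotides, at -0.68, but its probes were called in opposite directions and their mean was -0.03. Of 25 DNA repair and recombination genes, 21 were higher and 1 lower (88% called), with a median of 2.01. The glycosylase gene Neil3 was at least 4.59-fold higher, the nuclease gene Ankle1 rose by 4.30 ± 0.30 with detection on 1 EtoH array, and Brca2 rose by 1.67 ± 0.13. Fancd2, a core protein of crosslink repair, was at least 2.77-fold higher. The uracil glycosylase gene Ung fell by 0.68 ± 0.09. Ribosome biogenesis also moved one way, with 18 of 25 nucleolar genes higher (9 with each array's median subtracted) and 0 lower (72% called) at a median of 0.63, led by the pseudouridine synthase gene Dkc1 (1.42 ± 0.07), Nhp2 of the same complex (1.18 ± 0.12) and Pes1 (0.96 ± 0.14).

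Among genes that hold the cycle back, more were lower than higher. Of 21 CDK inhibitors and p53 growth-arrest genes, 10 were lower in FF, 2 higher and 9 not called (57.1% called), with a median of -0.38, and 5 were called lower with each array's median subtracted. Cdkn1b, which encodes the CDK inhibitor p27, gave 1.99 and 1.85 in FF and 2.68 and 2.80 in EtoH, a fall by 0.82 ± 0.09 (adjusted p = 8.7e-04). Cdkn1a, which encodes p21, gave 3.53 and 3.40 in FF and 4.02 and 3.96 in EtoH, a fall by 0.53 ± 0.10, with a probe in a patch on an FF array. In both genes the FF arrays lay below the EtoH arrays, by less than in the mitotic genes. Cdkn1b and Cdkn1a stood at -0.70 and -0.40 and were not called with each array's median subtracted. The growth-arrest gene Gadd45g fell by 1.71 ± 0.17, the cyclin G2 gene Ccng2 by 1.65 ± 0.13 and the polo-like kinase gene Plk2 by 1.44 ± 0.17. The 2 genes called higher, Zmat3 (0.36) and Sesn1 (0.32), were not called without FF replicate 1 (0.37 and 0.26) or EtoH replicate 1 (0.28 and 0.32). Zmat3 was not called without FF replicate 2 (0.36) either, nor Sesn1 without EtoH replicate 2 (0.33).

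The promoters of these cell-cycle genes are shown where they carry 2 motifs known from cell-cycle control, the cell-cycle homology element TTTGAA of mitotic genes and the E2F site TTTCGCGC or TTTGGCGC of replication genes. Each line is a stretch of 60 bases upstream of the start, 5′ to 3′ on the gene's strand, from RefSeq's GRCm38.p6 promoter windows, with the motif or its reverse complement in capitals. They lie at chr8:71405952-71406011 (forward strand) for Ankle1, chr4:117178843-117178902 (reverse strand) for Kif2c, chr19:37376322-37376381 (forward strand) for Kif11, chr15:102296233-102296292 (forward strand) for the separase gene Espl1, chr10:69353010-69353069 (reverse strand) for Cdk1, chr1:128359719-128359778 (reverse strand) for Mcm6, chr8:75109334-75109393 (forward strand) for Mcm5 and chrX:93632260-93632319 (reverse strand) for Pola1.
Ankle1: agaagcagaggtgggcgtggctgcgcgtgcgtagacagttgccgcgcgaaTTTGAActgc
Kif2c: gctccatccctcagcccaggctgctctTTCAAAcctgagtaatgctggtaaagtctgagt
Kif11: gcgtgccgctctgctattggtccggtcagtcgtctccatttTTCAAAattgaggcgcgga
Espl1: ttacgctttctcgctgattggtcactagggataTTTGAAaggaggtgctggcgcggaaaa
Cdk1: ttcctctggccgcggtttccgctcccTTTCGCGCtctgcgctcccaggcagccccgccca
Mcm6: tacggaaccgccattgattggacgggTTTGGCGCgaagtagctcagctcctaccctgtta
Mcm5: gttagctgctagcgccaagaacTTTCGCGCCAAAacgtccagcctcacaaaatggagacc
Pola1: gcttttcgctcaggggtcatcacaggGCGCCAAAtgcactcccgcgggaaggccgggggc
In Ankle1, Kif11 and Espl1 the element begins at positions -10, -19 and -27 relative to the start, and in Mcm5 an E2F site in each direction overlaps the other. Of 40 promoter windows of mitotic genes higher in FF, which cover 36 genes, 27 held TTTGAA (67.5%), against 1584 of 12513 windows of all genes tested (12.7%). Of 25 windows of replication genes higher in FF, which cover 22 genes, 8 held an E2F site (32%), against 188 of 12513 (1.5%). The general motif CCAAT was in 72.5% and 72% of these 2 sets and in 38.1% of all windows. These shares describe the windows and were not tested.

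Type I interferon response genes fell, though not as a whole. Of 47 measured, 22 were lower in FF, 2 higher and 23 not called, with a median of -0.34, against 20% lower among all genes. With each array's median subtracted, 11 were called lower, and without any 1 of the 4 arrays 18 or 19. The lowest was Mx1, which blocks influenza and related viruses, at -3.81 and -3.86 in FF and 0.56 and 0.50 in EtoH, a fall by 4.37 ± 0.12, with detection on 1 of the 2 FF arrays (-2.82 with normexp). After Rsad2, Ifit2, Cmpk2 and Ifit3 came the guanylate-binding proteins Gbp5 and Gbp2, which act on membranes of intracellular pathogens and fell by 2.71 ± 0.25 and 2.05 ± 0.19, and Ifit1, by 1.86 ± 0.15. Stat2, part of the factor that carries the interferon signal to DNA, fell by 0.90 ± 0.16 and the amplifying factor gene Irf7 by 0.80 ± 0.10. Ifnb1, which encodes interferon beta itself, gave -5.39 and -6.09 in FF and -2.25 and -2.02 in EtoH. It was not above background in FF and was at least 3.69-fold lower. Its adjusted p of 3.4e-04 in limma rests on those dim FF readings. Of the many members not called, the RNA sensor gene Ddx58 was at -0.04, the oligoadenylate synthetase gene Oas1a at -0.02 (0.25 and called higher with normexp) and Trim30a at 0.12. The 2 genes called higher, Ifi44l (0.41) and the proteasome gene Psmb10 (0.46), lost their calls without single arrays. For Ifi44l these were FF replicate 2, either EtoH array and either VSG22 array (0.31 to 0.42), and for Psmb10 FF replicate 1, EtoH replicate 2 and either VSG22 array (0.32 to 0.46).

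The interferon-response motif, GAAA repeated after a gap of 2 bases, bound by interferon regulatory factors, is shown in the promoters of 4 genes that fell, with the motif or its reverse complement in capitals. The windows lie at chr12:26456538-26456597 (reverse strand) for Rsad2, chr19:34583382-34583441 (forward strand) for Ifit3, chr3:142620579-142620638 (forward strand) for Gbp2 and chr19:34640779-34640838 (forward strand) for Ifit1, again on GRCm38.p6 from RefSeq.
Rsad2: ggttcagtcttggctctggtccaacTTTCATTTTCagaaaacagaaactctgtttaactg
Ifit3: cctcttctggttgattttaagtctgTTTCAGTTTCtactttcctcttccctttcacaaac
Gbp2: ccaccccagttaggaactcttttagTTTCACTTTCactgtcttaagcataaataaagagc
Ifit1: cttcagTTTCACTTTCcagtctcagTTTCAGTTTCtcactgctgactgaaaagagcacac
Ifit1 holds the motif at 2 places in this stretch. Of 22 windows of interferon genes lower in FF, which cover 18 genes, 12 held the motif (54.5%), against 410 of 12513 windows of all genes tested (3.28%). Among all 43 windows of the measured interferon genes the share was 48.8%, so genes that fell and genes that were not called both carried it.

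**Figure D3:**
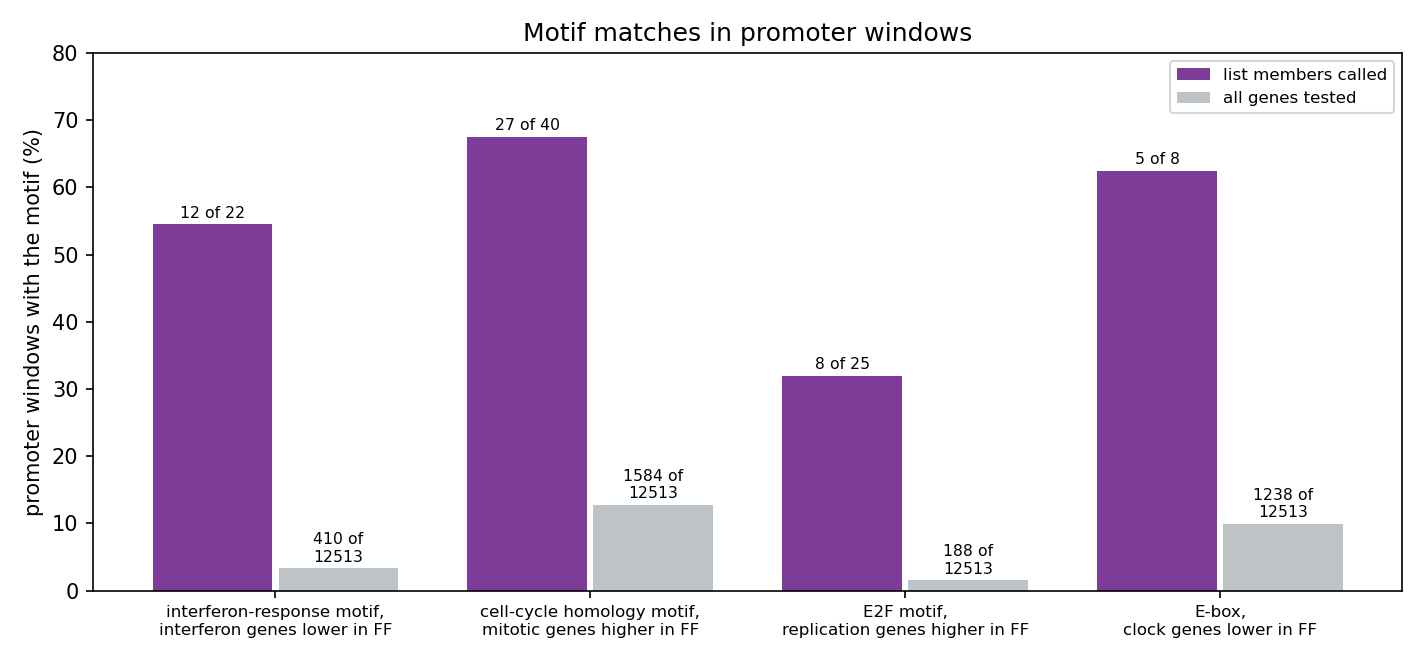
Share of promoter windows (y axis, percent) that hold a motif, for list members called in FF against EtoH (purple) and for all genes tested (grey), with the counts above the bars. The listed genes stand above all genes for each of the 4 motifs, from 32% against 1.5% for E2F to 67.5% against 12.7% for the cell-cycle homology motif.

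No pro-inflammatory cytokine gene was called higher. Of 22 measured, 15 were lower in FF (68.2%, against 20% lower among all genes), with a median of -0.65, and 9 were called lower with each array's median subtracted. With the replicate as a block 2 were called higher. Il1b, the central cytokine of inflammasome signalling (mm9 chr2:129190347-129190406), gave 4.65 and 4.48 on the FF arrays and 6.67 and 6.54 on the EtoH arrays. Both FF arrays lay well below, a 4.12-fold lower signal (log2 -2.04 ± 0.11, adjusted p = 5.8e-05). Its relative Il1a fell by 1.24 ± 0.09, Il6 by 0.68 ± 0.10 (adjusted p = 0.0034), and Inhba, a subunit of activin, was at least 1.77-fold lower. Il6 stood at -0.56 and was not called with each array's median subtracted. Tnf was not called, with 6.93 and 7.17 in FF and 7.30 and 7.38 in EtoH (difference -0.29 ± 0.11, 95% interval -0.54 to -0.04, adjusted p = 0.073, patch on an FF array). It was called lower with the replicate as a block (-0.29) and without FF replicate 2 (-0.41). Of 13 promoter windows of the cytokine genes that fell, 1 held the NF-kB motif, GGGA and TTTCC with a gap of 1 base (7.69%, against 0.487% of all windows) and 3 the AP-1 motif TGANTCA (23.1%, against 5.43%). Counter-regulatory genes moved both ways, 4 of 21 higher and 6 lower, 47.6% called (2 and 2 with each array's median subtracted). Il1rn, the natural antagonist of the interleukin 1 receptor, fell by 1.40 ± 0.08, Il18bp, which neutralises interleukin 18, by 1.18 ± 0.13, and the signalling inhibitor gene Cish by 0.74 ± 0.12. Il10 gave 1.97 and 1.96 in FF and 2.53 and 2.52 in EtoH, a fall by 0.56 ± 0.08 (-0.44 and not called with each array's median subtracted). Higher were Irak3, a kinase-dead brake on Toll-like receptor signalling (0.95 ± 0.10), the nuclear inhibitor gene Nfkbid (0.81 ± 0.10) and the phosphatase gene Ptpn1 (0.69 ± 0.12).

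Among 15 measured chemokine genes, 5 were lower and 1 higher, with a median of -0.27. The share called, 40%, was near the 36.8% of all genes. With each array's median subtracted, 4 were called lower and 0 higher. The CC chemokines for monocytes and T cells, Ccl12, Ccl7 and Ccl5, changed by -3.01, -2.18 and -1.23, and the interferon-induced Cxcl10 by -0.95. Ccl2 gave 9.15 and 8.98 in FF and 9.65 and 9.42 in EtoH, among the brightest genes on the arrays, and fell by 0.47 ± 0.11, a call lost without FF replicate 2 (-0.39) or EtoH replicate 1 (-0.35). Ccl3, a neutrophil and macrophage attractant, rose by 0.40, a call lost without FF replicate 1 (0.34), EtoH replicate 1 (0.42) or EtoH replicate 2 (0.38).

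The upstream pathways were mixed. Of 31 NF-kB pathway genes, 5 were higher and 10 lower (48.4% called), with a median of -0.07, against 16.8% higher and 20% lower among all genes. With each array's median subtracted, 0 were called lower. The adaptor kinase gene Ripk2 fell by 0.79 ± 0.11, the adaptor Traf1 by 0.77 ± 0.11 and the subunit gene Nfkb2 by 0.74 ± 0.09. Among those higher were Traf3 (0.59 ± 0.10) and Nfkb1 (0.58 ± 0.14), whose call was lost without FF replicate 1 (0.58), FF replicate 2 (0.58) or EtoH replicate 1 (0.45), or with the mean of its probes (0.26). Of 21 Toll-like receptor signalling genes, 3 were higher and 7 lower, 47.6% called (1 lower with each array's median subtracted). The receptor genes Tlr13 and Tlr2, for bacterial RNA and lipoproteins, rose by 0.97 ± 0.13 and 0.74 ± 0.10, and the signalling inhibitor gene Tollip fell by 0.99 ± 0.12. Tlr4, the LPS receptor, stood at -0.33 ± 0.12 (adjusted p = 0.071, patch on an FF array) and was called lower without either Dex array (-0.33) or with a percentile over detected probes (-0.39).

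AP-1 and immediate early factors were mostly lower, 12 of 21, with 4 higher (76.2% called) and a median of -0.60, though 5 were called lower with each array's median subtracted. Myc, the growth-promoting transcription factor, gave -0.31 and -0.79 in FF and 1.13 and 1.21 in EtoH, a fall by 1.72 ± 0.20 (adjusted p = 0.0012). The FF arrays were low in Myc while the cell-cycle genes above were high. The stress factor gene Atf3 fell by 1.77 ± 0.10, the survival gene Ier3 by 1.33 ± 0.10 and Jun by 0.96 ± 0.17. Batf3, a factor of dendritic cells, rose by 1.51 ± 0.21, the early growth response gene Egr1 by 1.31 ± 0.15 and the immediate early gene Ier2 by 0.52 ± 0.10. Among 20 MAP kinase phosphatase and mRNA-decay genes, 6 were lower and 1 higher, with a median of -0.24 and a share called, 35%, near that of all genes. Dusp14, Dusp10 and Dusp8 fell by 2.28 ± 0.11, 2.05 ± 0.21 and 1.57 ± 0.10, and Dusp2, a nuclear phosphatase of immune cells, rose by 1.22 ± 0.10.

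Inflammatory enzymes and effectors were balanced, with 10 of 31 higher and 10 lower, 64.5% called (5 and 6 with each array's median subtracted). Nos2, the inducible nitric oxide synthase (mm9 chr11:78773567-78773626), gave 5.72 and 5.75 in FF and 7.21 and 7.33 in EtoH, a fall by 1.54 ± 0.09 (adjusted p = 7.6e-05). Ptgs2, the inducible cyclooxygenase, gave 6.91 and 7.17 in FF and 8.31 and 8.40 in EtoH, a fall by 1.32 ± 0.13 (adjusted p = 6.7e-04). Both remained bright in FF while lying below both EtoH arrays. The collagenase gene Mmp13 fell by 2.69 ± 0.10, its inhibitor gene Timp1 by 2.19 ± 0.15 and the plasminogen activator gene Plau by 1.54 ± 0.18. The vasoconstrictor gene Edn1 rose by 2.10 ± 0.10, Slc7a2, which imports arginine, was at least 3.46-fold higher, and the inflammasome sensor gene Nlrp3 rose by 1.19 ± 0.16. Of 21 antigen presentation and co-stimulation genes, 11 were lower and 2 higher (61.9% called), with a median of -0.30, and 1 was called lower with each array's median subtracted. The activation marker Cd83 fell by 1.26 ± 0.10, the co-stimulatory receptor Cd40 by 0.79 ± 0.08 and Nlrc5, which activates MHC class I genes, by 0.69 ± 0.11, while the co-stimulatory ligand gene Icosl rose by 0.66 ± 0.09.

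Genes of macrophage identity moved both ways, 7 of 28 higher and 11 lower, 64.3% called (4 and 2 with each array's median subtracted). Csf1r, the receptor for the growth factor of macrophages, gave 7.22 and 7.40 in FF and 6.04 and 6.00 in EtoH, a rise by 1.29 ± 0.13. Itgam, the CD11b chain, gave 5.29 and 5.29 in FF and 3.88 and 3.66 in EtoH, a rise by 1.52 ± 0.12 (0.71 with the mean of its probes). The FF arrays were the higher ones for both, as for the fractalkine receptor gene Cx3cr1 (1.33 ± 0.19). The lineage factor gene Runx1 fell by 1.12 ± 0.10 (-0.45 with the mean of its probes) and Aif1 by 0.86 ± 0.13. Of 22 genes for phagocytosis and alternative activation, 3 were higher and 9 lower, 54.55% called (2 and 3 with each array's median subtracted). Mertk, given above, was among those higher, while Clec7a, the fungal glucan receptor, fell by 2.10 ± 0.29, Gas6, a bridging ligand of Mertk, by 1.34 ± 0.15, and Thbs1, which bridges dying cells to phagocytes, was at least 2.48-fold lower. Osteoclast genes fell in 9 of 19 cases with 3 higher, 63.2% called, at a median of -0.58 (2 were called lower with each array's median subtracted). The proton pump subunit gene Atp6v0d2 fell by 2.39 ± 0.27 and the chloride channel gene Clcn7 by 0.95 ± 0.13, while the carbonic anhydrase gene Car2 rose by 1.57 ± 0.11 and the AP-1-related gene Jdp2 by 1.53 ± 0.09.

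**Figure D4:**
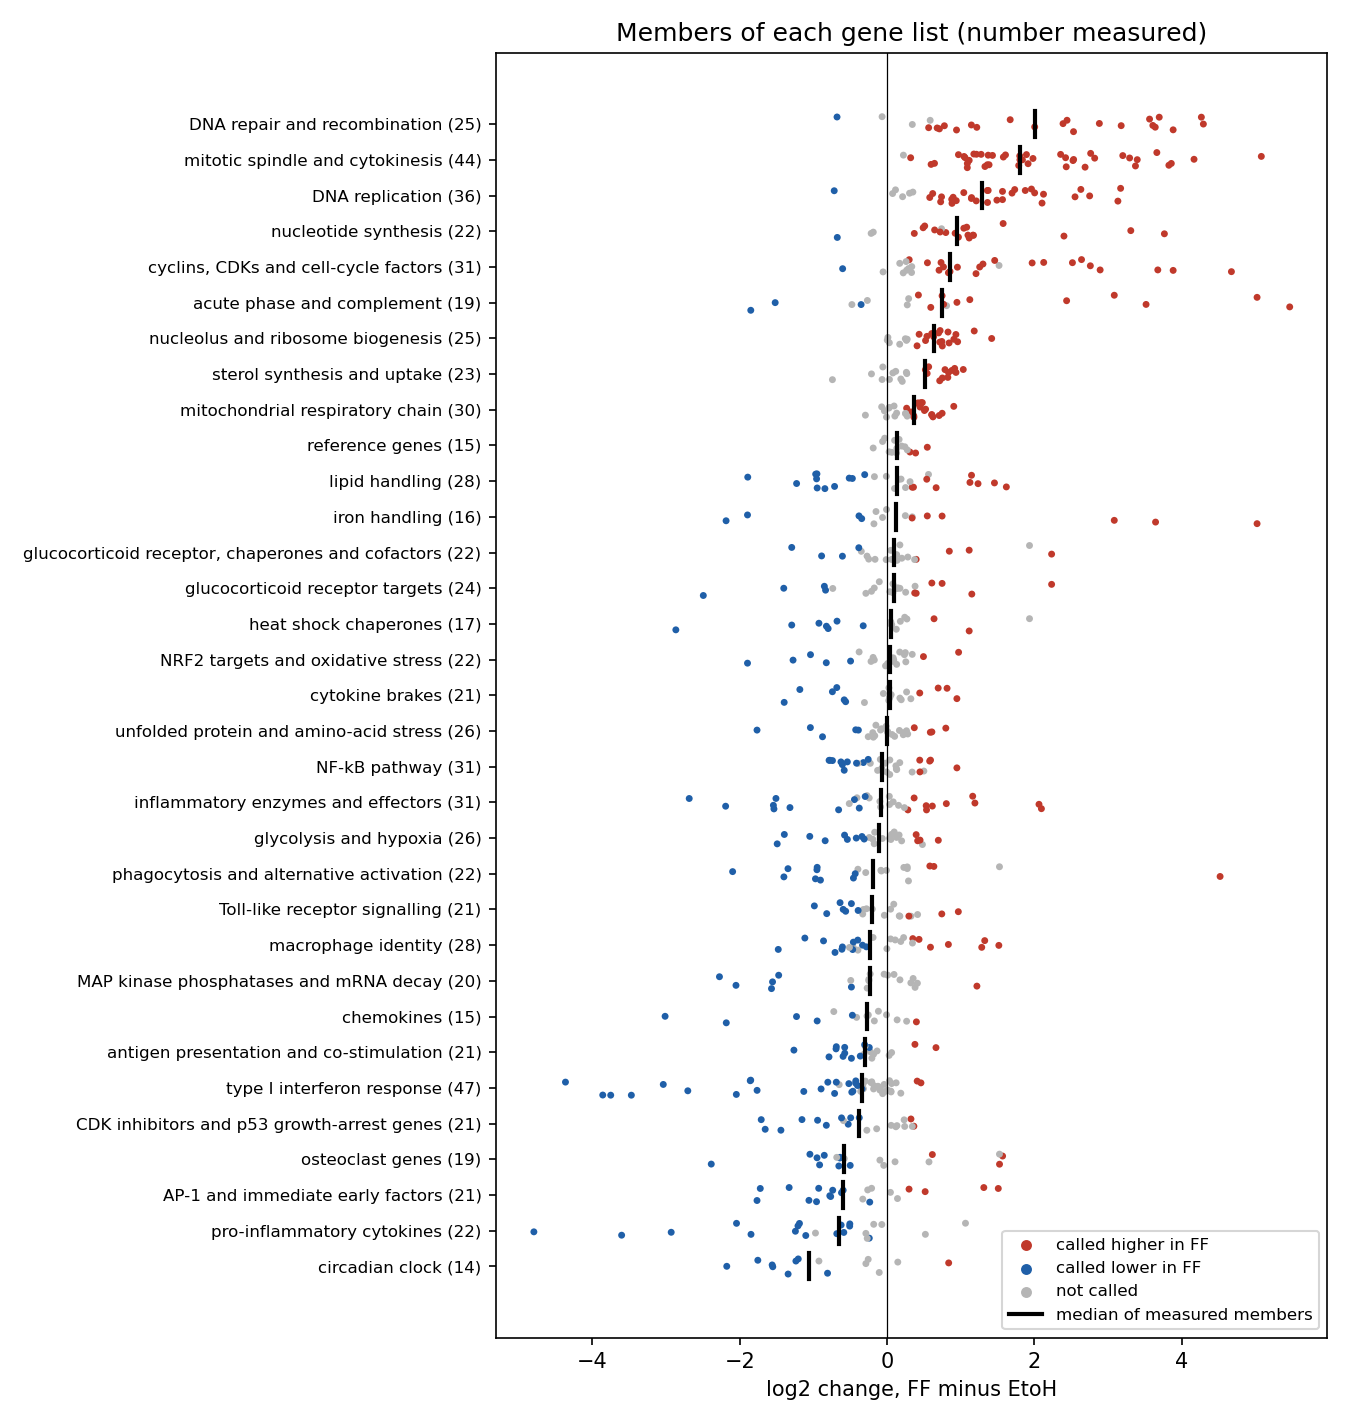
Log2 change of FF minus EtoH (x axis) of each measured member of 33 gene lists, ordered by the median of the list (black bar), red where called higher in FF, blue where called lower and grey where not called. The lists of DNA repair (median 2.01) and mitosis (1.80) lie farthest to the right and the circadian clock (-1.06) farthest to the left, and most other lists straddle zero. The lists were chosen with earlier results of these data known.

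Hp was not the only acute phase gene to rise. Of 19 acute phase and complement genes, 11 were higher and 3 lower (73.7% called), with a median of 0.75. Cp, the copper-carrying ferroxidase ceruloplasmin, gave 5.42 and 5.46 in FF and 2.42 and 2.29 in EtoH, a rise by 3.09 ± 0.11 (adjusted p = 1.9e-05), and Serpina3f was at least 2.53-fold higher. Saa3, a serum amyloid A gene active in macrophages, rose by 0.77 ± 0.12. The complement factor B gene Cfb fell by 1.85 ± 0.12 and the anaphylatoxin receptor gene C3ar1 by 1.52 ± 0.17. Hp, Cp and Steap1 also belong to the iron-handling list, where 6 of 16 were higher and 4 lower, 62.5% called (4 and 2 with each array's median subtracted). There Slc40a1, the iron exporter ferroportin, gave -2.56 and -2.74 in FF and -0.38 and -0.55 in EtoH, a fall by 2.19 ± 0.19, and Hmox1, the haem-degrading enzyme, fell by 1.89 ± 0.07.

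Circadian clock genes had the lowest median of the lists, -1.06, with 8 of 14 lower and 1 higher (64.3% called). Tef, a factor of the clock's output, gave 0.56 and 0.57 in FF and 2.74 and 2.75 in EtoH, a fall by 2.18 ± 0.10 (adjusted p = 3.2e-05), and its relative Dbp fell by 1.21 ± 0.15. The repressors Bhlhe40 and Bhlhe41 fell by 1.75 ± 0.17 and 1.55 ± 0.23 and Cry1 by 1.56 ± 0.25. Nr1d1, which encodes the haem receptor REV-ERB alpha, fell by 1.34 ± 0.27, a call lost without EtoH replicate 2 (-1.20). Nfil3, which represses the same sites that Tef and Dbp activate, rose by 0.84 ± 0.08 (patch on an FF array). The core activators Clock and Arntl were not called (-0.26 and 0.15). The E-box CACGTG, the site of the core activators, is shown in 3 promoters of genes that fell, at chr15:81802519-81802578 (forward strand) for Tef, chr10:85185082-85185141 (reverse strand) for Cry1 and chr6:145865541-145865600 (reverse strand) for Bhlhe41 on GRCm38.p6 (RefSeq).
Tef: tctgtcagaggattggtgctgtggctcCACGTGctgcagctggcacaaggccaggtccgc
Cry1: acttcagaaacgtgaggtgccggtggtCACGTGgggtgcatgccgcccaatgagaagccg
Bhlhe41: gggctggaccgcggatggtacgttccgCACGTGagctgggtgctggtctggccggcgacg
Of 8 windows of clock genes lower in FF, which cover 7 genes, 5 held the E-box (62.5%), against 1238 of 12513 windows of all genes tested (9.89%).

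Metabolic lists moved by smaller amounts. Of 30 respiratory chain genes, 18 were higher and 0 lower (60% called), with a median of 0.36 (3 were called higher with each array's median subtracted), led by the ATP synthase subunit gene Atp5g1 (0.91 ± 0.08), Sdhc (0.75, patch on an FF array, but 0.16 and not called without probes in patches) and Ndufb5 (0.71 ± 0.13). Of 23 sterol synthesis and uptake genes, 12 were higher and 0 lower (52.2% called), with a median of 0.52. The isoprenoid enzyme gene Idi1 gave 3.22 and 3.20 in FF and 2.24 and 2.12 in EtoH, a rise by 1.03 ± 0.11, and the later enzymes Cyp51 and Hsd17b7 rose by 0.94 ± 0.15 and 0.92 ± 0.14. Lipid-handling genes were divided, 9 of 28 higher and 11 lower (71.4% called), a balance that turned to 6 higher and 4 lower with each array's median subtracted. Lpl, the lipoprotein lipase, rose by 1.62 ± 0.12 and the desaturase genes Scd1 and Scd2 by 1.46 ± 0.11 and 1.24 ± 0.23, while Fabp3 fell by 1.89 ± 0.09, the lysosomal lipase gene Lipa by 1.23 ± 0.11 and the nuclear receptor gene Ppard by 0.97 ± 0.09. Of 26 glycolysis and hypoxia genes, 4 were higher and 9 lower, 50% called (1 and 2 with each array's median subtracted). Hk3 fell by 1.49 ± 0.11, Ndrg1 by 1.39 ± 0.11 and Adm by 1.05 ± 0.17, and Pfkfb3, which makes the activator of glycolysis, rose by 0.70 ± 0.09.

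Of the stress lists, 2 had no more called genes than the background of 36.8%. Of 22 NRF2 and oxidative stress genes, 2 were higher and 5 lower (31.8% called; 1 and 3 with each array's median subtracted), with Hmox1 lowest, the autophagy receptor gene Sqstm1 at -1.28 and the antioxidant gene Srxn1 at -1.04, against the glutathione reductase gene Gsr at 0.97. Among 26 genes of unfolded protein and amino-acid stress, 4 were higher and 5 lower (34.6% called; 1 and 2 with each array's median subtracted), with Dnajb9 and Ddit3 at -1.04 and -0.88 and the folate enzyme gene Mthfd2 at 0.80. Of 17 heat shock chaperones, 2 were higher and 7 lower, 52.9% called (2 lower with each array's median subtracted). Hspa1a, the inducible HSP70, was not above background in FF and at least 3.49-fold lower, Dnajb4 changed by -0.92, and the mitochondrial chaperone gene Hspd1 by 0.64. Of 15 genes often used as reference genes, 3 were called higher (20%) and 0 lower (0 of either with each array's median subtracted), with a median of 0.13, among them Ppia (0.39), whose call was lost without FF replicate 2 (0.36) or EtoH replicate 2 (0.31) or with quantile normalization (0.24), and Tfrc (0.55, patch on an FF array), lost without FF replicate 2 (0.45) or EtoH replicate 1 (0.46), without probes in patches (0.27) and with the mean of its probes (0.23). Gapdh stood at 0.16 and Actb at 0.07, both not called.

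FF was also set against the mean of the other 3 glucocorticoids, all given at the same dose and times. The EtoH arrays entered this comparison through the pooled estimate of the spread, not through the difference itself. Of 18028 genes tested in limma, 0 were called (0%), the smallest adjusted p was 0.106, and 1258 genes had an unadjusted p under 0.05. The count rose to 42 with each array's median subtracted and to 37 without Dex replicate 2. Medians over the gene lists, markers aside, lay between -0.10 for antigen presentation and 0.10 for glycolysis and hypoxia. Hp gave 2.33 and 2.31 in FF, 1.38 and 1.41 in Dex, 2.77 and 2.56 in VSG22 and 2.81 and 2.62 in VSGC12, so the FF arrays lay between those of Dex and those of the 2 VSG compounds. Its difference from the mean of the other 3 was 0.06 (95% interval -0.14 to 0.26, adjusted p = 0.87). Rsad2 gave 2.42 and 2.43 in FF, 3.30 and 3.08 in Dex, 2.45 and 2.58 in VSG22 and 2.34 and 2.25 in VSGC12, a difference of -0.25 (95% interval -0.44 to -0.06, adjusted p = 0.7). Dex had the higher residual signal here, and the other 3 lay close together. The difference was 0.20 for Fkbp5 (95% interval -0.06 to 0.45), 0.10 for Il1b (-0.11 to 0.31) and -0.03 for Nos2 (-0.20 to 0.14). With 2 FF arrays these intervals do not show that the compounds act alike.

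**Figure D5:**
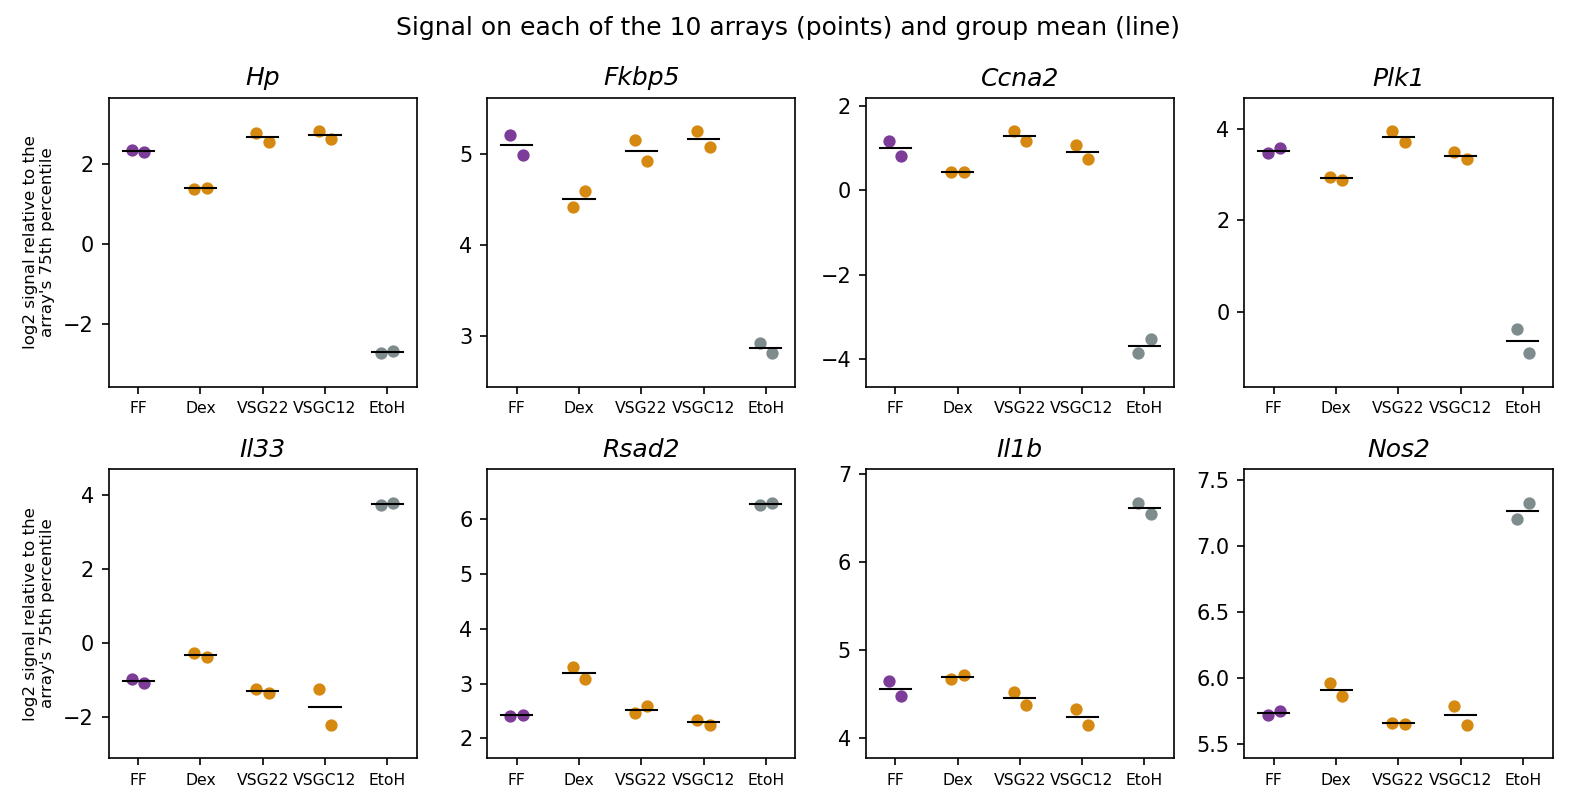
Log2 signal relative to the array's 75th percentile (y axis, a scale of its own for each gene) on each of the 10 arrays for 8 genes, FF in purple, Dex, VSG22 and VSGC12 in orange and EtoH in grey, with a line at each group's mean. In each panel the FF arrays lie with the other glucocorticoid arrays and apart from the EtoH arrays, above them for Hp, Fkbp5, Ccna2 and Plk1 and below them for Il33, Rsad2, Il1b and Nos2.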

How the data were processed

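RNA of RAW264.7 cells was hybridised to 10 single-colour Agilent arrays, 2 for each of 5 groups, with 62976 spots an array, of which 59305 are not controls. The deposited values are spot intensities from the scanner, background-subtracted and processed by Agilent Feature Extraction 10.7.3.1 per the file headers, with other columns that mark spots well above background, saturated or outlying. The submitters' processing notes name limma without saying for which step, so the authors' own normalization was not used here.

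The processed intensity was averaged over the spots of a probe (outlier spots left out), divided by the array's 75th percentile (375.1 to 536.8) and taken to log2. A gene was represented by its brightest probe among those that passed the scanner's background test on both arrays of some group, which left 18051 genes, 13515 with a current symbol. Of 55681 probes, 26413 were named through their accession, 3859 through their symbol and 735 through a synonym in RefSeq, and 24674 kept the file's name. Names, probe positions (mm9) and promoters come from the files and RefSeq tables, and no genome was used, so exons and UTRs were not assigned. The groups were compared in limma 3.58.1 (R 4.3.3; lmFit and eBayes over all 10 arrays, group alone, 5 residual degrees of freedom), two-sided, with Benjamini-Hochberg adjustment over all genes. The code was tested on simulated data. The number of arrays limits the precision.

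Named are the 12 highest and 12 lowest called genes and the 4 highest bounds in each direction. Up to 3 leading members of each list and a set of landmark genes are named too. The 12 highest and 12 lowest were taken among genes with a current symbol, detected on all 4 arrays. Both FF arrays also had to lie on one side of both EtoH arrays. The members and lists were chosen with earlier results of these data known. Some leading list members with calls lost without single arrays are not named, and some other genes are not reported here. Named after their values were seen were Actb, Arntl, Aurkb, Bhlhe41, Birc5, Brca2, Ccnb1, Cdk1, Clock, Cxcl10, Dbp, Ddx58, E2f1, E2f8, Espl1, Fancd2, Foxm1, Gapdh, Gbp2, Gbp5, Ifit1, Il1a, Irf7, Jun, Kif11, Mcm5, Mcm6, Mt1, Mybl2, Nr1d1, Oas1a, Pola1, Saa3, Sgk1, Stat2, Tlr4, Top2a, Tpx2 and Trim30a. Alternatives changed the scaling (array median, percentile over detected probes, quantile), the background (normexp), the filter on dim probes, the probe summary, the arrays in the fit, the replicate as a block and the eBayes settings, and left out each array in turn. Leaving out probes in patches on any array was chosen after seeing the data.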

Additional observations from a re-analysis of the deposited data

How the results depend on the processing

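Most named genes, many of them chosen for large changes, kept their call. The number of genes called and the share of calls that were higher moved with the setting. Of 234 genes named, 176 kept the same call in every alternative that gave them a value, 20 to 23 of the 23 for each and all 23 for 132 of them, and 1 reversed: Oas1a, which was not called at first, was called higher with normexp (0.25). Subtracting each array's median in place of its 75th percentile gave 2540 genes called between FF and EtoH, 1747 higher and 793 lower. No filter on dim probes gave 3182 genes, 1417 higher and 1765 lower. The share of calls that were higher was 45.6% in the main setting, 38.8% with the percentile over detected probes and 68.8% with the median. Leaving out 1 array at a time gave 3827 to 7601 genes called, 1740 to 3586 higher and 2065 to 4015 lower. For FF against the other 3 glucocorticoids the count was 42 with the median, 5 with quantile normalization, 2 without both Dex arrays, 1 with eBayes trend and robust settings, and 0 to 37 with 1 array left out.

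Of the genes named, 43 were no longer called with the median subtracted. Besides those whose loss with single arrays is given above, these were Adm, Aif1, Blnk, Cd40, Cdkn1a, Cdkn1b, Cdt1, Cish, Ddit3, Dnajb4, Gbp10, Hspd1, Icosl, Ier2, Il10, Il6, Irf7, Jun, Klf2, Ncoa1, Nfkb2, Nlrc5, Ptpn1, Rb1, Rgs16, Ripk2, Samhd1, Stat2, Traf1, Traf3 and Ung. Without the filter on dim probes 19 were no longer called, among them Cdkn1a, Ier2 and Rgs16. Normexp ended the calls of Gbp10 (-0.23), Klf2 (-0.46) and Sesn1 (0.21). Of the called genes named, 41 moved by more than 1.5 times with normexp, 40 of them to a smaller change. Besides those given elsewhere these were Aurkb (1.43), Batf3 (0.84), Btg4 (-1.08), Ccng2 (-1.07), Cdc25c (1.36), Cdc6 (1.91), Cxcl10 (-0.61), Depdc1b (1.83), Dusp13 (-1.72), E2f7 (1.71), Espl1 (1.54), Fancd2 (0.99), Gm12387 (2.39), Gm9430 (1.87), Hspa1a (-1.02), Ier2 (0.34), Ifnb1 (-1.10), Inhba (-0.83), Kif11 (0.87), Kif2c (1.30), Mmp13 (-1.43), Neil3 (1.41), Nlrp3 (0.79), Nr1d1 (-0.59), Plau (-0.78), Rhov (-1.45), Serpina3f (0.92), Slc7a2 (0.80), Thbs1 (-0.47) and Tpsb2 (0.41), and Sgk1 moved up (0.66). With the mean of a gene's probes 14 moved that far, among them Med14 (0.31), Pes1 (0.41), Pfkfb3 (0.32), Tollip (-0.64), Sdhc (0.45) and Itga4 (0.59). The replicate block gave 7207 calls, 6423 of them shared with the 6642 in the main setting. It ended none of the calls named and added those of Tnf, E2f1 and Gbp7. The replicate number is also the slide, but same-numbered FF and EtoH arrays deviated together by little (r = 0.084 across genes).

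Genes near background are read with little precision, since no more than 44.4% of spots on any array were well above it, and a gene not above background in a whole group has only a bound. With 2 arrays a group, small changes cannot be told from the spread. The causes of these dependences were not tested.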

Other observations

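Gene families beyond the lists, chosen after their values were seen, are given beside the 16.8% of all genes that were higher in FF and the 20% that were lower. Of 33 replication-dependent histone genes, which supply the nucleosomes of newly copied DNA, 14 were higher in FF and 11 lower, although the replication genes themselves rose. H2ac4 gave 4.41 and 4.56 in FF and 2.17 and 1.95 in EtoH, a rise by 2.42 ± 0.19, and H2ac11 rose by 1.50 ± 0.15. H2ac18 gave 2.81 and 2.56 in FF and 5.44 and 5.34 in EtoH, a fall by 2.71 ± 0.11, the linker histone gene H1f2 fell by 2.70 ± 0.09 and H2bc4 by 2.21 ± 0.11. Both FF arrays lay apart from both EtoH arrays in each of these 5 genes, as they did for 73.4% of all genes. Histone genes have near-identical copies, so which copy a probe reads is uncertain.

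The stefin A genes of chromosome 16, inhibitors of cathepsin proteases, mostly rose together. Csta2 rose by 2.89 ± 0.11, Csta3 by 2.82 ± 0.14, Stfa2l1 by 2.60 ± 0.09 and Stfa3 by 1.79 ± 0.13, while Stfa2 stood at 0.16 ± 0.24, and their copies are similar enough that probes may not separate them. Of 10 guanylate-binding protein genes, 5 fell, and the 4 with the largest falls, Gbp5, Gbp2b, Gbp2 and Gbp3 (-2.71, -2.44, -2.05 and -1.85), lie on chromosome 3, where Gbp7 was not called (-0.49, limma adjusted p = 0.065; called with the replicate as a block and without either Dex array). The other one called was Gbp10 on chromosome 5 (-0.87), whose call was lost without FF replicate 1 (-0.84) or EtoH replicate 1 (-0.70) and with normexp (-0.23). Of 11 genes for regulators of G protein signalling, 5 fell and 1 rose. Rgs1 gave 2.22 and 1.85 in FF and 4.19 and 4.07 in EtoH, a fall by 2.09 ± 0.14, next to Rgs2 described above, and Rgs16 rose by 0.58 ± 0.11. Of 16 integrin chain genes, 5 rose and 4 fell. Itgb7, the beta chain of gut-homing integrins, gave 2.14 and 2.08 in FF and 4.43 and 4.22 in EtoH, a fall by 2.22 ± 0.15. Itga4, the alpha chain that pairs with it, was called higher (1.03 ± 0.14), but stood at 0.16 and was not called without probes in patches on any array.

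For 86 of the 4085 genes with several measured probes, 1 probe was called higher in FF and another lower. A single value for such a gene, Samhd1 among them, depends on which probe represents it.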
